A study of Homo sapiens with 6 samples.

Results

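The prostaglandin genes are 10 genes taken by symbol from the 30267 genes of a normalized count table: PLA2G4A, PTGS1, PTGS2, PTGES, PTGES2, PTGES3, PTGIS, PTGER2, PTGER4 and HPGD. All 10 had a row, and 9 passed the filter on low values used for testing, which asked for 10 or more in 3 of the 6 libraries or more and kept 16554 genes in all. PTGS1 did not pass. Total RNA was sequenced from SW839, an established renal cell carcinoma (RCC) line, to ask what RNF25, an E3 ubiquitin ligase, does in these cells. In 3 libraries, called shRNF25, the cells carried a hairpin against RNF25, and in 3, called shControl, they carried the pLKO vector. The study's methods describe lentiviral delivery and puromycin selection for such lines, so both groups carried a vector and the selection. A single hairpin name appears in the library names. The treatment text gives the RNF25 hairpin plasmid for the control samples as well, so the groups rest on the titles and genotype labels. The control libraries were named in a different form from one another and from the knockdown libraries, no batch label was given, and a batch cannot be told apart from the knockdown. The design text calls the libraries biological triplicates. Nothing further says how the cultures were kept apart, and p-values measure the spread between these libraries.

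Prostaglandins are made in a short chain. Cytosolic phospholipase A2 (PLA2G4A) frees arachidonic acid from membranes, and the cyclooxygenases, the constitutive COX-1 (PTGS1) and the inducible COX-2 (PTGS2), turn it into prostaglandin H2. Terminal synthases make the final product, which is prostaglandin E2 for PTGES (microsomal, inducible), PTGES2 (membrane-associated) and PTGES3 (cytosolic, also the HSP90 co-chaperone p23) and prostacyclin for PTGIS. Prostaglandin E2 acts through receptors that include EP2 (PTGER2) and EP4 (PTGER4), both of which raise cyclic AMP, and 15-hydroxyprostaglandin dehydrogenase (HPGD) inactivates it. In many carcinomas COX-2 is abundant and HPGD is scarce.

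In shRNF25 the releasing phospholipase, COX-2 and the prostaglandin E2 synthases were lower and the inactivating enzyme was higher. PTGS2 fell to 2.70% of its control mean and HPGD rose to 403.3%. PTGES fell to 31.5%, PLA2G4A to 42.9%, PTGES2 to 55.4% and PTGES3 to 66.3% of control, and PTGER2 rose to 200.6%. A gene was called lower or higher when limma's adjusted p was under 0.05 and the fold change was at least 1.5. Of the 9 tested prostaglandin genes, 5 were called lower, against 7.1% of all tested genes, and 2 were called higher, against 8.65%. Without shRNF25 replicate 1 the calls were 2 lower and 2 higher, and 4 passed the adjusted p. Calls over all genes shrank as well, to 783 lower and 597 higher of 16073, from 1175 and 1432 of 16554. Without shRNF25 replicate 2 or 3 they shrank alike, to 801 lower and 657 higher and to 797 and 662. The prostaglandin calls then stayed at 5 lower and 2 higher, with PTGES2 near the threshold (adjusted p = 0.0481 and 0.0499, limma). In the full comparison the adjusted p alone was passed by 8, against 21.3% of all tested genes, and PTGIS was the exception. The 3 libraries of each group did not overlap for any of the 9 tested genes, 7 lower and 2 higher in shRNF25, against 42.5% of all tested genes. They overlapped for PTGS1, which was not tested. The median log2 fold change of the 9 tested genes was -0.74, and that of all tested genes was -0.01.

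**Figure D1:**
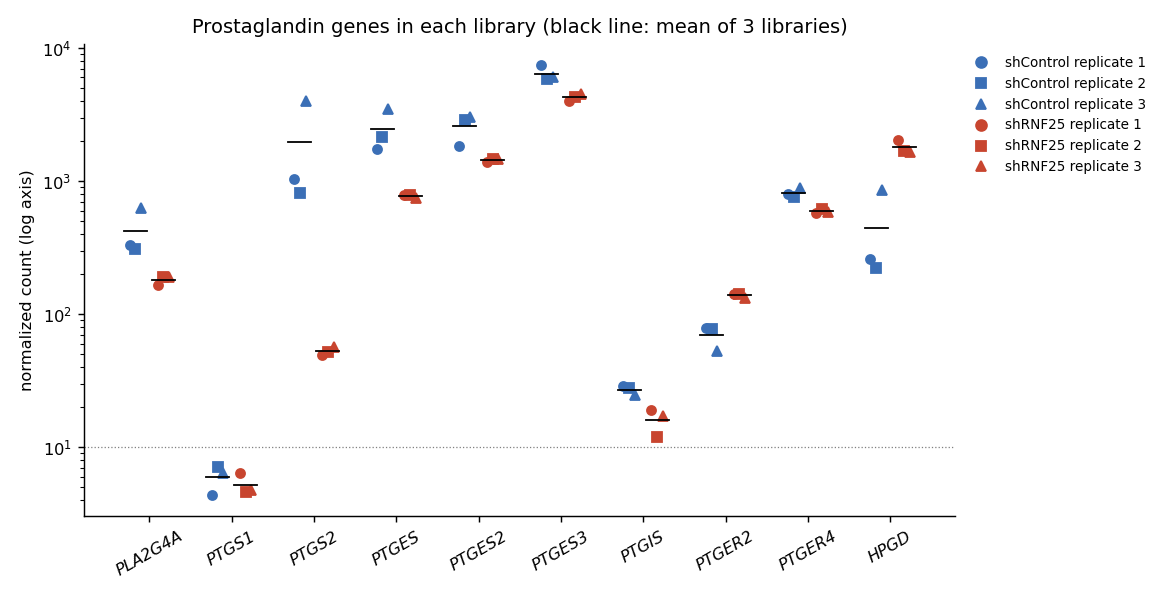
Normalized count of each prostaglandin gene (log axis) in the 3 shControl libraries (blue) and the 3 shRNF25 libraries (red), with the marker shape giving the replicate, a black line at the group mean, and a dotted line at 10, the value used in the filter. PTGS2 drops from between 807.5 and 3994 to between 49.2 and 57.2, HPGD goes the other way, and PTGS1 lies under the dotted line in every library.

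RNF25, the target of the hairpin, had normalized counts of 694.2, 533.5 and 536.4 in shControl replicates 1, 2 and 3 and of 214.1, 245.7 and 265.0 in shRNF25 replicates 1, 2 and 3. All 3 shRNF25 libraries were below all 3 controls (log2 fold change -1.27, SE 0.15, adjusted p = 0.000585, limma). Libraries held between 18647460 and 19943154 reads on genes. The shControl libraries differed more among themselves than the shRNF25 libraries did: Pearson's r of log2 values across genes was 0.976 to 0.988 within shControl and 0.994 within shRNF25. Across genes shControl replicate 1 was the least like the other controls, with r of 0.981 and 0.976, against 0.988 between replicates 2 and 3. For the prostaglandin genes, in contrast, shControl replicate 3 stood apart. It was the highest control for 6 of the 9 tested genes, while it was the highest for 31.6% of all tested genes. It held 4.32 times the mean of the other controls for PTGS2 and 3.52 times for HPGD, and 4.30% of all tested genes differed at least 2-fold in that way. Values without it are therefore given beside the results that it moves most. In bulk RNA, fewer cells expressing a gene and less RNA of it per cell cannot be told apart.

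Of the 12 renal epithelial markers 10 were in the table, and PAX2 and CDH16 had no row. KRT8, KRT18, KRT19 and EPCAM were abundant and PAX8 lay between 76.7 and 140.3. CDH6 was at 13.0 or less and CA9 at 50.7 or less. Leukocyte markers, 6 of 8 of which were in the table, summed to between 59.7 and 73.9 in shControl and between 66.7 and 95.7 in shRNF25, with CD3E at 1.08 or less. Endothelial and stromal markers, all 9 in the table, summed to between 1596 and 1986 in shControl and between 1359 and 1657 in shRNF25, with DCN at 1.03 or less. COL1A1 made up most of that sum, at 1090 to 1258 in shControl and 847.8 to 992.3 in shRNF25, and PECAM1 lay between 349.9 and 549.4. Neither was called, nor was CSF1R, the highest leukocyte marker not called, at 38.9 or less. CDH5 moved with PTGS2, from 73.0, 102.6 and 198.6 in shControl to 3.64, 8.31 and 5.72 in shRNF25. KDR (17.3 to 29.8 in shControl and 81.3 to 88.4 in shRNF25), ITGAM and VIM were called higher, of which ITGAM was not called without shControl replicate 3 (adjusted p = 0.0822, limma). Their part in the results was not tested.

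The sequences upstream of the start are shown for the COX-2 gene, for the synthase that is coupled to it, and for the inactivating enzyme, since these genes carried the largest changes. Each run is the 250 bases before the start in RefSeq's GRCh38.p14 annotation, written 5′ to 3′ on the gene's strand, which is the minus strand for all 3. HPGD has a second listed start, and the first is shown. Capitals mark matches, on either strand, to the NF-κB (κB) consensus or a looser κB motif with 1 more free position, the cyclic AMP response element (CRE) core TGACG, the C/EBP motif TTNNGNAA and the TATA box TATAAA.

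PTGS2, chr1:186680424-186680673: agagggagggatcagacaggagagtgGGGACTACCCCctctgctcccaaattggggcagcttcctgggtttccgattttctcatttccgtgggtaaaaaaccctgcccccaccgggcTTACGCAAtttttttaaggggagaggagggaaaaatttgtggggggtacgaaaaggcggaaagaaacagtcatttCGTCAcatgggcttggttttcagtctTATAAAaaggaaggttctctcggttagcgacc

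PTGES, chr9:129753043-129753292: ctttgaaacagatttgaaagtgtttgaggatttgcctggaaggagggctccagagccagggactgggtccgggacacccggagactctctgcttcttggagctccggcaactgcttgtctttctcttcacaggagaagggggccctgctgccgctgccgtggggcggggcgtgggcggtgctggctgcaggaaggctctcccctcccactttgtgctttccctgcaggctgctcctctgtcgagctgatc

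HPGD, chr4:174522489-174522738: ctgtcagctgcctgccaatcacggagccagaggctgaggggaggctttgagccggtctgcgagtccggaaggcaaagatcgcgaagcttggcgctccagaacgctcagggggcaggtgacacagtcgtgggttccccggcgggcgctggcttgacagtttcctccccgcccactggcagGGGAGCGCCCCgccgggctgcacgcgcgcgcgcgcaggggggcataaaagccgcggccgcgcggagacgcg

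Positions are counted from the start, with the base before it as -1. The PTGS2 run holds a looser κB match at -224 to -215 that overlaps one on the other strand, a C/EBP match at -133 to -126, a CRE core at -58 to -54 and a TATA box at -32 to -27. The HPGD run holds a κB consensus match at -70 to -61, overlapping a looser one. The PTGES run has no match to these motifs, and has the GC box GGGCGG at -89 to -84 and at -78 to -73. Every consensus match is also a looser match. Windows from 250 bases before to 50 after the start were listed for 9 of the prostaglandin genes (13 windows). The looser κB motif was in 8 of the 13 windows, against 20.8% of all 35116 promoter windows of the same length. These windows belonged to 7 genes, those without it being PTGES and PLA2G4A. Of the 13 windows, 4 held the CRE core, against 24.6% of all windows, and 3 held the C/EBP motif, against 36.8%. The TATA box was in 2, against 11.5%, and the κB consensus in 4, against 11.3%. The GC box was in 10, against 45.0%, and the E-box CACGTG in 2, against 7.26%. Genes that fell and genes that rose both held looser κB matches, PTGS2 and PTGES3 among the first and HPGD and PTGER2 among the second. A match describes these letters only.

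PLA2G4A, which frees the substrate, had normalized counts of 332.7, 310.9 and 624.9 in shControl replicates 1, 2 and 3 and of 166.7, 189.3 and 188.7 in shRNF25 replicates 1, 2 and 3. Replicate 3 was the highest control and the groups did not overlap. The gene fell by 1.14 on the log2 scale (SE 0.24, adjusted p = 0.0107, limma). Without shControl replicate 3 the log2 fold change was -0.82 and still passed, and without shRNF25 replicate 1 it did not pass (adjusted p = 0.0609, limma). Against shControl replicate 3 alone PLA2G4A was 3.44-fold lower in shRNF25, and against the mean of the other controls 1.77-fold lower. It starts 148.526 kb from the start of PTGS2 on chromosome 1 (chr1:186828953-186988981, plus strand, GRCh38).

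PTGS1 (COX-1) was close to the limit of detection, with 4, 7 and 6 reads in the shControl libraries and 7, 5 and 5 in the shRNF25 libraries. Normalized counts were 4.42, 7.18 and 6.48 in shControl and 6.38, 4.62 and 4.77 in shRNF25. The groups overlapped (two-sided exact permutation p = 0.6, n = 3 per group, where the smallest possible p is 0.1), and a difference was not detectable at this depth.

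PTGS2 (COX-2) showed the largest change of the 10 genes. It had normalized counts of 1043.5, 807.5 and 3994 in shControl replicates 1, 2 and 3 and of 49.2, 51.7 and 57.2 in shRNF25 replicates 1, 2 and 3. The lowest control was far above the highest shRNF25 library, and the control values themselves spread 4.95-fold while the shRNF25 values spread 1.16-fold. The log2 fold change was -4.81 (95% interval -5.90 to -3.71, adjusted p = 0.000274, limma). PTGS2 in shRNF25 was 17.6-fold below the mean of shControl replicates 1 and 2 and 75.8-fold below replicate 3. Without replicate 3 the log2 fold change was -4.10 (adjusted p = 1.52e-05, limma). The gene lies at chr1:186671791-186680427 on the minus strand. PACERR, a noncoding RNA that starts 195 bases from the PTGS2 start on the plus strand, had 0 or 1 read in every library, too few to compare.

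With COX-1 near 0, COX-2 was the main cyclooxygenase transcript in both groups. Per kb of exon, the PTGS2 level was 259.4, 123.6 and 677.9 times the PTGS1 level in shControl and 8.48, 12.3 and 13.2 times in shRNF25. The ratio was lower in all 3 shRNF25 libraries, and it rests on 7 PTGS1 reads or fewer per library.

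The prostaglandin E2 synthases PTGES, PTGES2 and PTGES3 all fell. PTGES had normalized counts of 1734, 2127 and 3483 in shControl and of 787.3, 781.3 and 746.3 in shRNF25. The shRNF25 libraries were nearly level, and replicate 3 was again the highest control. Its log2 fold change was -1.60 (SE 0.22, adjusted p = 0.00129, limma), and -1.31 without shControl replicate 3.

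PTGES2 had normalized counts of 1842, 2878 and 3028 in shControl and of 1384, 1454 and 1456 in shRNF25. The groups did not overlap, with shControl replicate 1 nearest to the shRNF25 libraries. The log2 fold change was -0.82 (SE 0.18, adjusted p = 0.0113, limma). It was -0.69 without shControl replicate 3 (adjusted p = 0.0294, limma), and without shRNF25 replicate 1 the difference did not pass (adjusted p = 0.0628, limma). The antisense gene PTGES2-AS1, which starts 67 bases away, was not tested because it lay between 6.16 and 13.0 in shControl and between 4.62 and 10.9 in shRNF25.

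PTGES3 was the most abundant of the 10 genes and changed least among those called. Normalized counts were 7381, 5833 and 6020 in shControl and 3993, 4282 and 4471 in shRNF25, again without overlap. The log2 fold change was -0.587 (SE 0.12, adjusted p = 0.00857, limma). The 1.5-fold criterion was applied to this estimate, which only just passed it, and the ratio of the means was 1.51-fold. The fold criterion was missed in 4 of 16 alternative settings and the adjusted p in 1 other. Of the 50-base stretches of its longest coding transcript, 12.5% also occur in other genes, chiefly the pseudogenes PTGES3P1 and PTGES3P3, so part of its counts is uncertain. PTGES3P1 was at 29.8, 18.5 and 17.3 in shControl and at 9.11, 11.1 and 12.4 in shRNF25, a difference that did not pass (adjusted p = 0.0646, limma) but narrowly passed without shControl replicate 3.

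The balance between the synthases also differed. PTGES made up 24.8%, 29.6% and 39.9% of the summed level per kb of the 3 prostaglandin E2 synthases in shControl, and 20.3%, 19.2% and 18.0% in shRNF25. Every control exceeded every shRNF25 library (two-sided exact permutation p is at best 0.1 with n = 3 per group). PTGES stood above PTGES2 per kb in each control library, 1.51, 1.18 and 1.84 times as high, and below it in each shRNF25 library, at 0.912, 0.862 and 0.822 times.

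PTGIS, which makes prostacyclin, was low. It had normalized counts of 28.7, 27.7 and 24.8 in shControl and of 19.1, 12.0 and 17.2 in shRNF25, from 13 to 27 reads per library. The groups did not overlap, yet the difference did not pass (log2 fold change -0.74, SE 0.27, adjusted p = 0.079, limma).

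**Figure D2:**
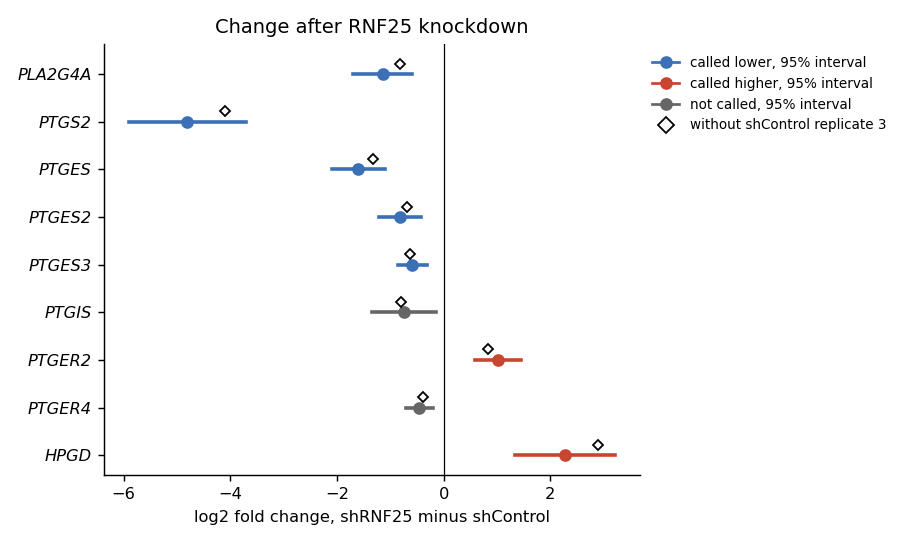
Log2 fold change of the 9 tested prostaglandin genes, shRNF25 minus shControl, ordered along the chain from substrate release at the top to inactivation at the bottom. Points are limma estimates with 95% intervals, blue for genes called lower, red for genes called higher and gray for genes not called, and open diamonds give the estimate without shControl replicate 3. Leaving that library out draws PTGS2 in from -4.81 to -4.10 and moves HPGD out from 2.28 to 2.89, and no estimate changes sign.

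The 2 receptors moved in opposite directions. PTGER2 (EP2) had normalized counts of 78.5, 77.0 and 52.9 in shControl and of 143.1, 141.3 and 133.4 in shRNF25. Here shControl replicate 3 was the lowest library. The gene rose by 1.02 on the log2 scale (SE 0.19, adjusted p = 0.00586, limma), and the value was 0.83 without that library.

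PTGER4 (EP4) had normalized counts of 802.6, 753.1 and 888.3 in shControl and of 571.3, 620.6 and 583.3 in shRNF25. All shRNF25 libraries were lower, but the change was under 1.5-fold (log2 fold change -0.46, SE 0.11, adjusted p = 0.0199, limma) and PTGER4 was not called. With the replicate number as a block the adjusted p was 0.0501, and it was 0.109, 0.0765 and 0.107 without shRNF25 replicates 1, 2 and 3 in turn. TTC33 lies across the whole of PTGER4 on the opposite strand, with a mean of 294.5 in shControl and 216.7 in shRNF25. Whether the counting used strand is not given in the sources used here, so reads of these genes may not have been kept apart.

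EP4 was the more abundant receptor throughout. Per kb of exon its level was 6.38, 6.11 and 10.5 times that of EP2 in shControl and 2.49, 2.74 and 2.73 times in shRNF25. EP2 thus made up 13.5%, 14.1% and 8.71% of both receptors in shControl and 28.6%, 26.7% and 26.8% in shRNF25, without overlap.

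HPGD, the enzyme that inactivates prostaglandin E2, had normalized counts of 262.0, 221.6 and 851.6 in shControl and of 2028, 1692 and 1664 in shRNF25. Replicate 3 was again the high control and lay below every shRNF25 library. HPGD rose by 2.28 on the log2 scale (95% interval 1.34 to 3.22, adjusted p = 0.0052, limma). Against the mean of shControl replicates 1 and 2 it was 7.42-fold higher, and against replicate 3 it was 2.11-fold higher. Without replicate 3 the log2 fold change was 2.89 (adjusted p = 2.64e-05, limma).

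PTGS2 and HPGD were both high in shControl replicate 3 relative to the other controls, while they changed in opposite directions in shRNF25. Per kb of exon, the HPGD level was 0.239, 0.262 and 0.203 times the PTGS2 level in shControl, and 39.3, 31.2 and 27.7 times in shRNF25. The groups did not overlap in this ratio (two-sided exact permutation p is at best 0.1 with n = 3 per group).

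**Figure D3:**
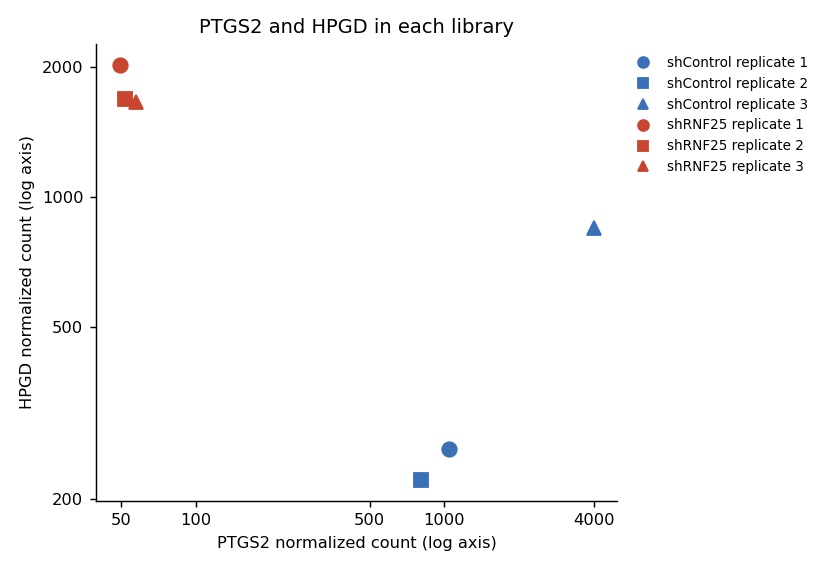
Normalized count of HPGD against that of PTGS2 in each of the 6 libraries, both on log axes, with shControl in blue, shRNF25 in red and the marker shape giving the replicate. The shRNF25 libraries form a tight group at low PTGS2 and high HPGD, and shControl replicate 3 lies above the other controls on both axes.

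Levels between genes were compared per kb of summed exon length. In shControl the order was PTGES3 (1886 ± 249 normalized counts per kb, SD, n = 3), PTGES (1291 ± 484), PTGES2 (849.9 ± 213), PTGS2 (369.8 ± 337), PTGER4 (205.7 ± 17.3), PLA2G4A (147.1 ± 61.0), HPGD (80.5 ± 63.8), PTGER2 (28.1 ± 5.81), PTGIS (4.86 ± 0.364) and PTGS1 (1.04 ± 0.248). Neighbours from PTGES3 down to HPGD overlapped in their libraries, and those from HPGD downward did not. In shRNF25 HPGD stood at 324.6 ± 36.7, between PTGES (407.0 ± 11.7) and PTGER4 (149.4 ± 6.49), and PTGS2 stood at 10.0 ± 0.775, between PTGER2 (56.3 ± 2.07) and PTGIS (2.89 ± 0.66). No neighbours overlapped in shRNF25. With the length of the longest transcript in place of the summed exons, HPGD moved above PTGES in shRNF25, at 592.9 against 413.1 per kb, and all other places were kept.

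**Figure D4:**
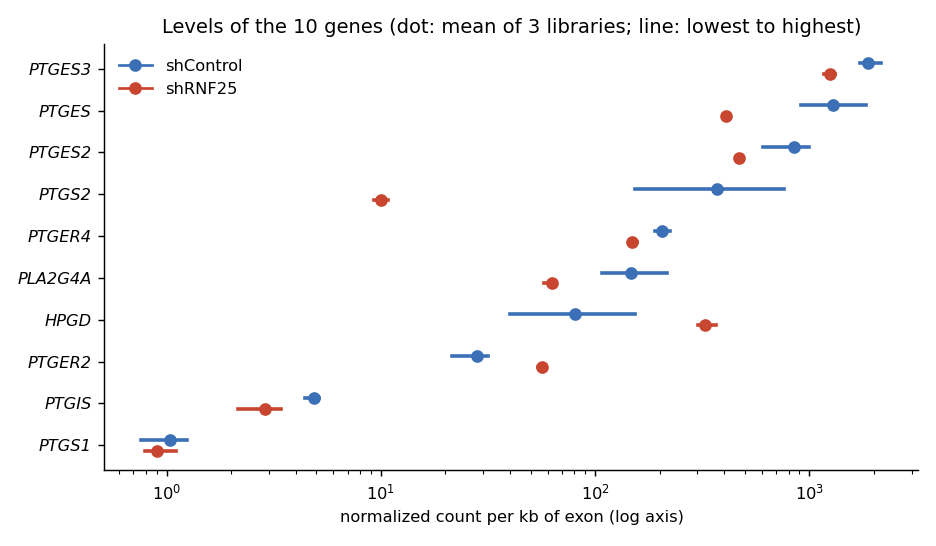
Level of the 10 prostaglandin genes in normalized counts per kb of exon (log axis), ordered by the shControl mean. Dots are means of 3 libraries and lines run from the lowest to the highest library, blue for shControl and red for shRNF25. The order of the controls spans from 1886 for PTGES3 to 1.04 for PTGS1, and PTGS2 and HPGD are the genes that leave it furthest in shRNF25.

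The other genes of the pathway were read from lists that leave out these 10. Together they held 68 genes, of which 63 were in the table and 47 were tested. Of these, 5 were called lower and 3 higher, with a median log2 fold change of -0.01. Over all tested genes 7.1% were called lower and 8.65% higher. Without shControl replicate 3 the counts were 2 lower and 7 higher, while of all 16313 genes then tested 1208 were lower and 1712 higher. The lower count shrank because ALOX5 and ALOX5AP then missed the filter and DAGLB (log2 fold change -0.55) the fold criterion. The genes added to the higher calls were not examined. Of 14 tested genes for arachidonate release, 2 were lower and 1 was higher. ACSL4, which activates arachidonic acid for storage in membranes, fell by 0.88 on the log2 scale, and DAGLB, a diacylglycerol lipase, fell by 0.62. PLA2G4C, another cytosolic phospholipase A2, rose by 0.78, and ANXA1, an inhibitor of phospholipase A2, had a log2 fold change of -0.37 and was not called.

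Of 10 other tested prostanoid synthases, none was called lower and 2 were called higher. TBXAS1, which makes thromboxane A2, was at 107.2, 114.9 and 102.5 in shControl and at 226.9, 191.2 and 235.4 in shRNF25. The groups did not overlap and the level rose 2-fold (adjusted p = 0.00193, limma). GSTM2, a glutathione transferase with prostaglandin E synthase activity, rose by 0.61, and PRXL2B, a prostaglandin F synthase, had -0.04 and overlapped between groups. None of the 4 other tested receptors and receptor-related genes was called: PTGFR, TBXA2R, PTGER1 and the receptor regulator PTGFRN. PTGFR, the prostaglandin F receptor, was at 290.7, 223.7 and 204.0 in shControl and at 328.0, 302.0 and 306.9 in shRNF25. PTGER3 (EP3), PTGDR and PTGIR had 1 read or none in every library. None of the 4 tested genes for transport and further breakdown was called. PTGR1, a prostaglandin reductase, had a log2 fold change of -0.35 (adjusted p = 0.0718, limma).

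The lipoxygenase branch, which draws on the same arachidonic acid, had 3 of 15 tested genes called lower and none higher. ALOX5, the 5-lipoxygenase that starts leukotriene synthesis, was at 17.7, 15.4 and 119.8 in shControl and at 1.82, 1.85 and 3.81 in shRNF25. The shRNF25 values rest on 2, 2 and 4 reads, and shControl replicate 3 was again far above the other controls. The log2 fold change was -3.30 (adjusted p = 0.0104, limma). By group means ALOX5 was 20.4-fold lower against all controls and 6.63-fold lower against shControl replicates 1 and 2. ALOX5AP, its activating protein, was at 25.4, 10.3 and 16.2 in shControl and at 6.38, 1.85 and 2.86 in shRNF25 (log2 fold change -1.99). Both genes reached 10 in the shControl libraries only, so they passed the filter through the group where they were high. The count of lower calls in this branch leans on them. CYP2J2, an arachidonate epoxygenase, fell by 0.72 on the log2 scale, and EPHX1, an epoxide hydrolase, had 0.21 and was not called.

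**Figure D5:**
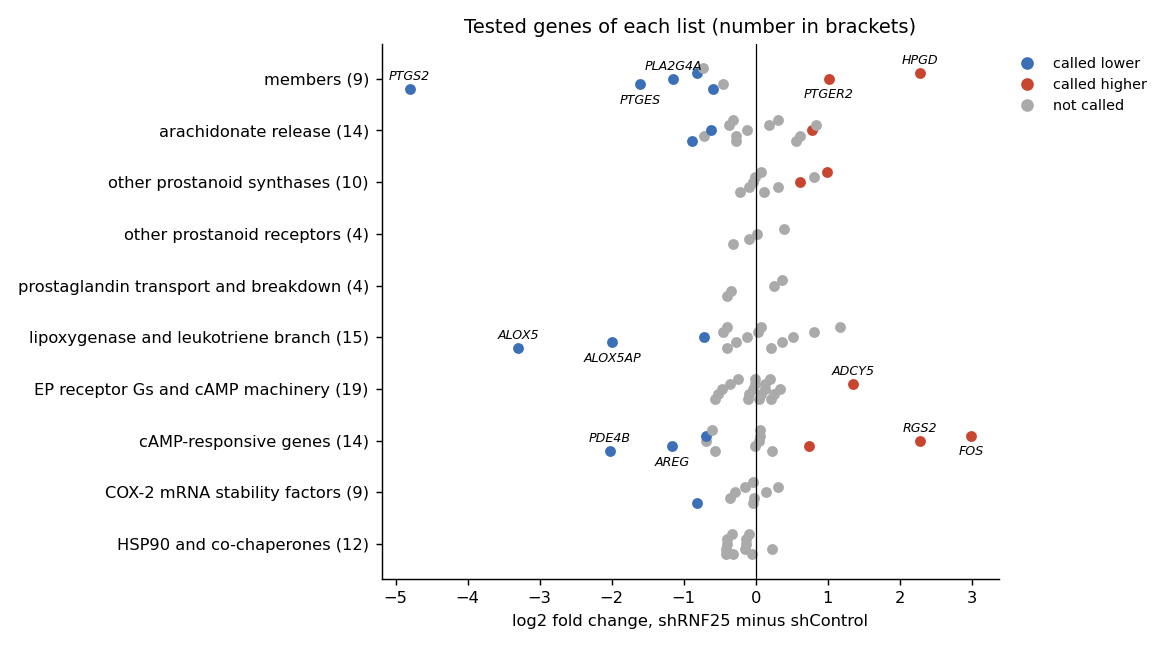
Log2 fold change (shRNF25 minus shControl) of every tested gene of the 10 prostaglandin genes ("members") and of each list around them, with the number of tested genes in brackets. Blue points were called lower, red points were called higher, and gray points were not called, the vertical offset within a row carries no meaning, and called genes that changed at least 2-fold are named. Of the prostaglandin genes 7 of 9 are colored, of the cyclic AMP-responsive genes 3 are blue and 3 are red, and most points of the other rows are gray.

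Downstream of EP2 and EP4 the machinery for cyclic AMP (the Gs protein, adenylyl cyclases, protein kinase A and receptor desensitization) had 1 of 19 tested genes called, higher. ADCY5, an adenylyl cyclase, had normalized counts of 8.21 or less in shControl and of 13.3 or more in shRNF25 (log2 fold change 1.35). It passed the filter through the shRNF25 libraries alone, the group where it was high. GNAS, the Gs alpha subunit, had -0.01. Of 14 tested genes known to respond to cyclic AMP, 3 were called lower and 3 higher, with a median of 0.02. FOS, an immediate early transcription factor, was at 157.0, 181.6 and 564.5 in shControl and at 1883, 2088 and 2087 in shRNF25. RGS2, a regulator of G protein signaling, was at 351.5, 236.0 and 272.0 in shControl and at 1288, 1456 and 1398 in shRNF25. FOS rose by 2.99 and RGS2 by 2.28 on the log2 scale. By group means FOS was 6.71-fold higher against all controls and 11.9-fold higher against shControl replicates 1 and 2. PDE4B, a phosphodiesterase that breaks down cyclic AMP, fell by 2.03, and AREG, the growth factor amphiregulin, fell by 1.16. DUSP1, a MAP kinase phosphatase, had -0.56 and was not called. The list thus moved in both directions.

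Of 9 tested genes for proteins that set the stability of COX-2 mRNA, 1 was called. ZFP36L1, which binds AU-rich elements and speeds decay, was at 6010, 2951 and 4162 in shControl and at 2354, 2617 and 2210 in shRNF25 (log2 fold change -0.81, adjusted p = 0.0293, limma, and 0.0576 without shControl replicate 3). KHSRP had -0.04. None of the 12 tested HSP90 genes and co-chaperones, the group to which PTGES3 belongs by its other role, was called, and their median log2 fold change was -0.23. HSP90AB1, the highest of them, had -0.33 (adjusted p = 0.0706, limma). TPR (log2 fold change -0.33) and LAMC1 (-0.08), listed for chromosome 1, were not called, and PDC had 1 read or none in every library. Their distances from PTGS2 were not measured.

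The genes whose profile over the 6 libraries was most like that of PTGS2 were found by the root mean square difference of log2 profiles, each centred on its own mean, among 12606 other tested genes with a mean of at least 50. They were TGFBI (0.538), an extracellular matrix protein, C15orf48 (0.552), CDH5 (0.592), the endothelial cadherin, LINC02015 (0.593) and CCL20 (0.744), a chemokine. In all 5, shControl replicate 3 was the highest library, as it was for PTGS2, which the choice by profile favors. TGFBI, the nearest, had normalized counts of 317.3, 343.7 and 690.7 in shControl and of 26.8 or less in shRNF25.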

How the data were processed

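Bulk RNA-seq of 6 SW839 libraries, 3 shRNF25 and 3 shControl, was analysed. The authors deposited normalized counts per gene symbol, a signal that is each library's count divided by a scaling factor. Per the labels, fastp, HISAT2, HTSeq and GRCh38 were used, without versions. The study's methods describe ribosomal RNA depletion, directional ligation and DESeq2. Whole reads were recovered for 100% of values (largest deviation 0.000212 reads), and the factors, 0.905 to 1.10, equal DESeq2's median-of-ratios factors. No value was corrected for gene length or batch.

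Deposited values were transformed to log2(normalized count + 1), so fold changes of low genes are understated. Genes with at least 10 in at least 3 libraries (16554 of 30267) were compared with limma 3.58.1 (eBayes with a trend, R 4.3.3) without covariates, with Benjamini-Hochberg adjustment over all tested genes. The study used DESeq2 with an adjusted p and a 1.5-fold criterion. The criteria were kept. The main test was planned for the deposited normalized values, so edgeR 4.0.16 and DESeq2 1.42.0 on recovered reads served as alternatives. Other alternatives were pseudocounts of 0.5 and 5, no filter, a minimum of 50, quantile normalization, rescaling on genes with a mean of at least 100, a replicate block, library weights by group, each library left out, and a fold of at least 2. Levels per kb and positions came from GENCODE 29, matched by symbol, and promoters from RefSeq. The scripts were tested on simulated data. The genes and lists were chosen with earlier results of these data known. The named genes are the 10, RNF25, up to 4 called genes with the largest change and the highest gene not called of each list, neighbours and copies, and the 5 genes most like PTGS2. PTGFR, TBXA2R, PTGER1, PTGER3, PTGDR and PTGIR, and the marker genes other than the called ones, were named after their values were seen. Proteins were not analysed here. One listed marker gene is not reported here. Same-numbered libraries did not deviate together (correlations -0.0638, -0.0874 and 0.0471), so the numbers were not taken as pairs.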

Additional observations from a re-analysis of the deposited data

How the results depend on the processing

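PTGS2 (log2 fold change -5.25 to -4.10), PTGES, PTGER2 and HPGD (1.92 to 2.89) were called in all 16 alternatives to the settings used. PTGES2 and PLA2G4A were called in 15 and PTGES3 in 11. Without shRNF25 replicate 1, PTGES2 (adjusted p = 0.0628, limma), PLA2G4A (0.0609) and PTGES3 (0.062) were lost, 2 prostaglandin genes were called lower and 4 passed the adjusted p. The calls over all genes were then 783 lower and 597 higher, against 1175 and 1432. Without shRNF25 replicate 2 or 3 they were 801 and 657 or 797 and 662, and PTGES2 passed narrowly (adjusted p = 0.0481 and 0.0499, limma). No direction reversed. PTGIS passed with quantile normalization only (adjusted p = 0.0271, limma, against 0.0696 to 0.281 in the others). With each library left out in turn, 2 to 5 of the 10 genes were called lower, 2 to 2 higher and 4 to 8 passed the adjusted p, 2 to 4 other pathway genes were called lower and 1 to 7 higher (2 and 7 without shControl replicate 3, and 1 higher without shControl replicate 2 or any shRNF25 library), and RNF25 ranged from -1.34 to -1.15. Other pathway genes called lower numbered 3 with a minimum of 50, 3 with rescaling, which gave 963 lower and 1617 higher calls over all genes, and 2 at a fold of at least 2, where 0 were higher and 3 prostaglandin genes were lower. The replicate block, with numbers that share no stated origin, gave 1193 lower and 1398 higher calls over all genes and left PTGER4 just short of the threshold (adjusted p = 0.0501, limma). The causes were not tested. Depth limits PTGS1, PTGIS and the antisense genes, with 27 reads or fewer.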
